A study of Mus musculus with 7 samples.

Results

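Genes that build, fold, glycosylate, export and degrade proteins in the endoplasmic reticulum (ER) were examined in whole hearts of dystrophin-deficient mdx mice. The list held 42 genes, and of the probe sets annotated to a single gene, the brightest on average across the 7 arrays stood for that gene. By this rule 41 of the 42 genes were found among the 18193 genes of the array. Sec61g, the small gamma subunit of the translocon, is annotated here only on a probe set shared with other genes and has no value. The list was drawn up when results of this same comparison were known, and 5 of its genes (Manf, Creld2, Sdf2l1, Man2a1 and Calr) had already been chosen by the size of their difference, so all counts over the list are given as a description.

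One group consisted of 4 mdx HRTΔIKKβ hearts, here also called the deleted hearts, from mdx mice with floxed IKKβ alleles and a Cre recombinase driven by the alpha myosin heavy chain (Myh6) promoter, which deletes IKKβ in cardiomyocytes. IKKβ is the kinase that activates NF-κB by way of its inhibitor proteins. The other group consisted of 3 mdx IKKβf/f hearts from littermates that carried the floxed alleles without Cre and serve as controls. All mice were 7 months old, all were mdx and, per the methods, male. The mdx mice were bought as C57BL/10 ScSn DMDmdx, and the background of the crossed mice is not stated in the sources used here. Since only the deleted group carried Cre, deletion of IKKβ and presence of Cre cannot be told apart. Each heart was hybridized to 1 Affymetrix Mouse Genome array, and the values are log2 signals after RMA (robust multi-array average). The comparison asks which genes differ when cardiomyocytes of a dystrophic heart lack IKKβ.

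Proteins destined for membranes or for secretion enter the ER through the Sec61 translocon, lose their signal peptide and receive N-linked glycans from the oligosaccharyltransferase. They fold with the help of the Hsp70 chaperone BiP, the lectin chaperones calnexin and calreticulin, and disulfide and proline isomerases. Proteins that fail to fold are returned to the cytosol and degraded by way of the SEL1L and HRD1 complex. When folding lags, the sensors IRE1α, PERK and ATF6 start the unfolded protein response, in which IRE1α splices the mRNA of XBP1, and XBP1 and ATF6 activate genes of chaperones and of degradation. In cardiomyocytes the ER is continuous with the sarcoplasmic reticulum, which stores calcium, and several chaperones also bind calcium.

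The 7 arrays had medians between 6.73 and 6.75 and correlated pairwise at 0.9875 to 0.9959 over all probe sets. The 15 cardiomyocyte markers were far above the rest of the array, with no value below 13.19, and their differences between the groups ran from -0.10 to 0.04. The lowest difference was that of Mybpc3, in which every deleted heart lay below every control. The highest value on any array was 15.1, and markers this near the top may not show a difference in cardiomyocyte content. Ikbkb, the gene of IKKβ, differed by -0.18 ± 0.11 at its brightest probe set (limma, adjusted p = 0.801), with 3 of its 4 other probe sets also lower in mean and all groups overlapping. The sources used here do not say whether a probe set lies in the deleted exons, and cells other than cardiomyocytes keep the gene. Markers of neighbouring tissues differed between single hearts. The 12 fast skeletal muscle markers were high in control replicate 1 (mean centred value 3.89), and the airway markers were high in mdx HRTΔIKKβ replicates 2 and 4. In whole-heart RNA, fewer cells of a type and less RNA per cell cannot be told apart.

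Most ER genes were higher on average in the mdx HRTΔIKKβ hearts than in the controls. This held for 39 of 41 genes, against 47.7% of all genes on the array. The median difference was 0.24 on the log2 scale, against -0.0056 over all genes, and single genes ran from -0.21 (Ern1) to 0.76 (Manf). In 25 of the 41 genes every mdx HRTΔIKKβ heart lay above every control heart, against 3.05% of all genes, and in 0 every deleted heart lay below, against 2.62%. At an unadjusted limma p of 0.05, 25 genes were higher (3.25% of all genes) and 1 was lower (2.95% of all genes). After Benjamini-Hochberg adjustment over all 45037 probe sets, 0 of the 41 genes passed, as did 0% of all genes. The adjusted p ranged from 0.437 for Sdf2l1 to 0.986 for Sel1l. An unpaired t-test gave 21 higher genes and 1 lower gene at the unadjusted threshold, and its shares over all genes were not counted. The paper's methods name that test in general, without naming it for single probe sets. Without the 5 genes singled out earlier, 34 of 36 genes had a higher mean, 21 had groups that did not overlap, and the median was 0.24.

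The differences were small. Means differed by at least 1.5-fold (0.585 on the log2 scale) in Manf, Pdia3 and Man2a1 alone. The lowest of the 7 values lay in a control heart for 35 of 41 genes, with 20 of them in control replicate 2 and 13 in replicate 1. The highest value lay in a deleted heart for all but 2 genes, most often in replicate 3 (15 genes). Leaving out control replicate 2 reduced the genes higher at the unadjusted threshold from 25 to 19.

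**Figure D1:**
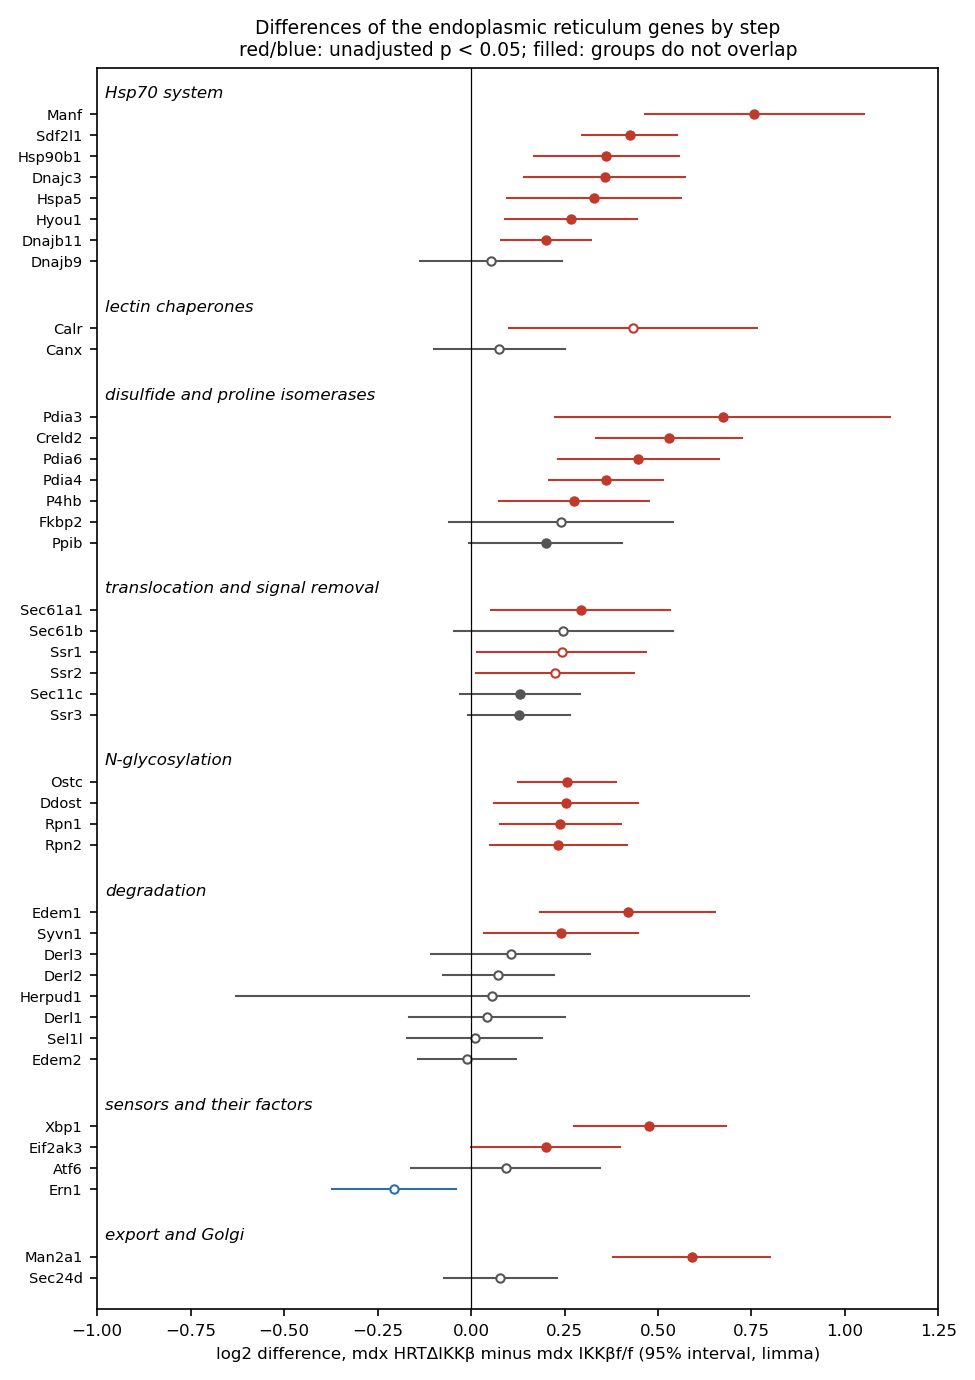
Difference of each of the 41 ER genes (log2, mdx HRTΔIKKβ minus mdx IKKβf/f, 4 against 3 hearts) with its 95% interval from limma, grouped by step. Points lie right of 0 for 39 genes. Manf lies farthest right at 0.76, Ern1 farthest left at -0.21, and the 4 N-glycosylation genes lie within 0.23 to 0.26.

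**Figure D2:**
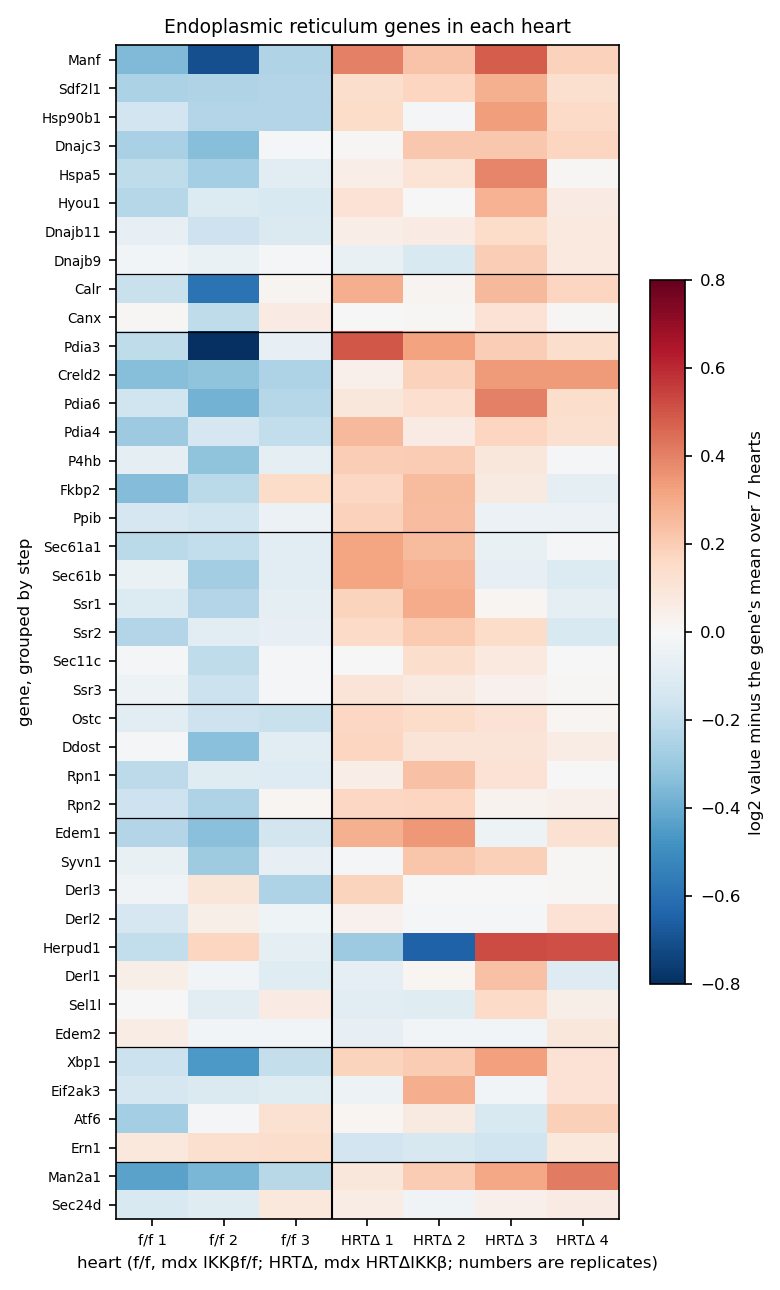
Log2 value of each gene in each heart minus the mean of that gene over the 7 hearts, with the 3 control hearts left of the line and the 4 mdx HRTΔIKKβ hearts right of it. Control replicate 2 holds the lowest value for 20 of 41 genes, and Herpud1 is high in deleted replicates 3 and 4 and low in replicates 1 and 2.

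In the following, values of single hearts are log2 signals in the order of the replicate numbers, and differences are given ± the standard error from limma. Levels of different genes are not comparable, since probe sets bind differently.

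The Hsp70 system of the ER lumen was higher in 8 of 8 genes, with a median difference of 0.34 and groups that did not overlap in 7. Hspa5 encodes BiP, the central chaperone of the lumen. Its values were 13.13, 13.18, 13.46 and 13.09 in the mdx HRTΔIKKβ hearts and 12.87, 12.80 and 12.99 in the control hearts. The difference was 0.33 ± 0.10, and replicate 3 of the deleted hearts stood above the other 6. Hsp90b1 encodes Grp94, the Hsp90 of the lumen, and read 12.25, 12.09, 12.44 and 12.26 in the mdx HRTΔIKKβ hearts and 11.95, 11.87 and 11.87 in the control hearts, a difference of 0.36 ± 0.08. Here too deleted replicate 3 was highest and the controls lay close together. The other Hsp90b1 probe set differed by 0.17 ± 0.11, and its groups overlapped. Hyou1, a large Hsp70 relative that exchanges the nucleotide of BiP, read 9.77, 9.66, 9.94 and 9.72 in the mdx HRTΔIKKβ hearts and 9.43, 9.55 and 9.54 in the control hearts (0.27 ± 0.08).

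Of the J-domain partners of BiP, Dnajc3, which also restrains the kinase PERK, had values of 9.65, 9.85, 9.85 and 9.81 in the mdx HRTΔIKKβ hearts and 9.38, 9.30 and 9.63 in the control hearts (0.36 ± 0.09). Control replicate 3 came near the lowest deleted heart. Dnajb11 (ERdj3), which hands substrates to BiP, read 10.28, 10.28, 10.37 and 10.30 in the mdx HRTΔIKKβ hearts and 10.16, 10.06 and 10.11 in the control hearts, with little spread inside either group (0.20 ± 0.05). Dnajb9 (ERdj4), a partner of BiP that holds IRE1α in check, differed by 0.05 ± 0.08, and its groups overlapped. Without deleted replicate 3 the Dnajb9 difference was -0.0047.

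Sdf2l1, a partner of ERdj3, had the smallest p of all ER genes. Its values were 7.65, 7.68, 7.79 and 7.63 in the mdx HRTΔIKKβ hearts and 7.25, 7.27 and 7.27 in the control hearts. The controls lay close together and well below the deleted hearts (0.42 ± 0.06, 1.34-fold). Manf, a trophic factor of the lumen that binds BiP and can be secreted, showed the largest difference of the list. It read 10.93, 10.75, 11.01 and 10.71 in the mdx HRTΔIKKβ hearts and 10.17, 9.82 and 10.28 in the control hearts (0.76 ± 0.13, 1.69-fold). Every deleted heart stood clear of the highest control, while control replicate 2 lay well below the other 2 controls.

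Promoters of several of these genes carry the ER stress response element (ERSE), a pair of short boxes described first in genes of lumenal chaperones such as BiP, Grp94 and calreticulin. RefSeq promoter windows (GRCm38.p6, 250 bases before to 50 bases after the annotated start) were at hand for 34 of the 42 genes. They were searched on both strands, with no mismatch allowed, for ERSE (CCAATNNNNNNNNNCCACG), for ERSE-II (ATTGGNCCACG) and for the unfolded protein response element UPRE (TGACGTGG). The 3 motifs share the letters CCACG or their complement, and no window of the list held more than 1 kind. ERSE was found in 9 of 34 windows (26.5%), against 0.137% of the 27025 genes of the table. ERSE-II was found in 2 (5.88% against 0.0444%) and UPRE in 1 (2.94% against 0.714%). Among 121 further genes of the same pathway, outside the list, ERSE was found in 1.65%, ERSE-II in 0.826% and UPRE in 7.44%. UPRE was thus commoner there than in the list. The first bases of the ERSE matches lay between -212 and -44, counted in bases from the start.

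The stretches around the matches are printed to show the bases between and beside the boxes in genes with and without a separation of the groups. The letters of the boxes themselves were fixed by the search. Matches in Calr, Syvn1, Dnajb11 and Sec24d are not printed. Capitals mark the match, and each stretch runs 5′ to 3′ on the strand of its gene. The first 5 belong to genes in which every deleted heart lay above every control, and Hsp90b1 holds 2 matches. The last 3 belong to genes whose groups overlapped, and Herpud1 carries ERSE-II in place of ERSE.
Hspa5 (chr2:34772000-34772068, plus strand): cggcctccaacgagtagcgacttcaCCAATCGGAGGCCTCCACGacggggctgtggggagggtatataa
Hsp90b1 (chr10:86705508-86705681, minus strand): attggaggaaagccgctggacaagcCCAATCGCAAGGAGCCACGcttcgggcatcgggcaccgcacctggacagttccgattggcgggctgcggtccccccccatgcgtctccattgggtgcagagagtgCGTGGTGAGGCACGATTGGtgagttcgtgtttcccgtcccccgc
Creld2 (chr15:88819495-88819563, plus strand): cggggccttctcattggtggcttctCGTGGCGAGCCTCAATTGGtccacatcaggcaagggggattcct
Dnajc3 (chr14:118937802-118937870, plus strand): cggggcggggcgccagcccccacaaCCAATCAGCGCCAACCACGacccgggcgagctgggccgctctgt
Pdia6 (chr12:17266466-17266534, plus strand): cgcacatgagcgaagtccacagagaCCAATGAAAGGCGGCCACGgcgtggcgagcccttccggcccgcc
Canx (chr11:50325775-50325843, minus strand): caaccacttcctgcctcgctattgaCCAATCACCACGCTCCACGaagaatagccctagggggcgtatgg
Derl3 (chr10:75893217-75893285, plus strand): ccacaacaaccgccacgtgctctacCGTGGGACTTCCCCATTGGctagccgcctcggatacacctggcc
Herpud1 (chr8:94386352-94386412, plus strand): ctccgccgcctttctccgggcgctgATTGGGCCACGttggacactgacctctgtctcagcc

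The 9 genes with ERSE were Calr, Canx, Creld2, Derl3, Dnajc3, Hsp90b1, Hspa5, Pdia6 and Syvn1, with differences from 0.08 to 0.53, a median of 0.36 and groups that did not overlap in 6. The 21 measured genes whose window held none of the 3 motifs had differences from -0.21 to 0.67, a median of 0.24 and groups that did not overlap in 13. Both kinds thus included genes with separate groups and genes with overlapping groups. A match to these letters describes the window and does not show that a factor binds there.

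**Figure D3:**
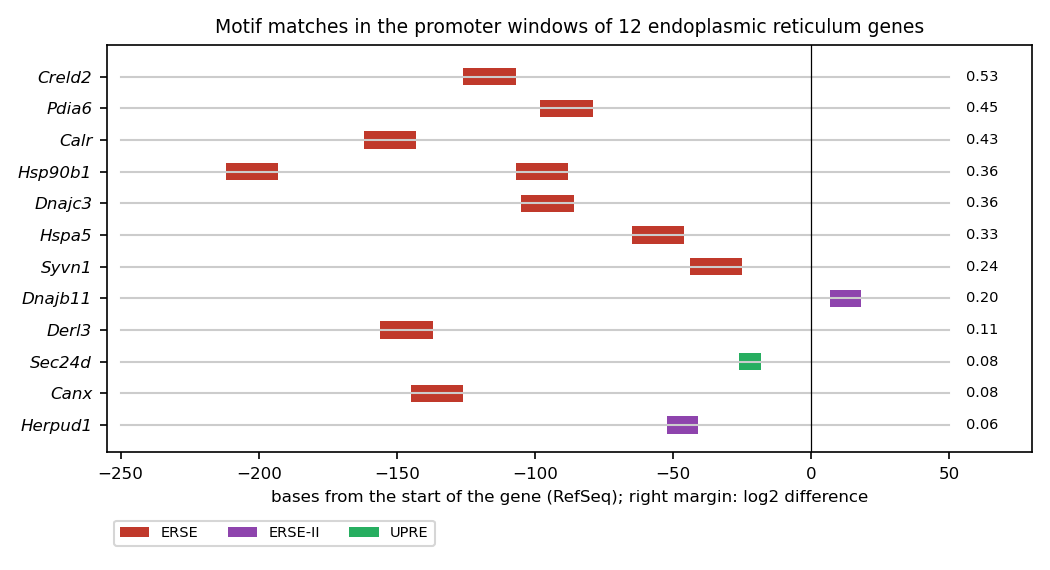
Position of motif matches in the promoter windows of 12 ER genes (x axis, bases from the RefSeq start of the gene, with the window drawn as a grey line and the log2 difference of the gene at the right margin). ERSE matches lie between -212 and -26, and genes with a match run from 0.06 (Herpud1) to 0.53 (Creld2).

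Calnexin and calreticulin hold newly glycosylated proteins until they fold. Calr (calreticulin, which also binds calcium) read 12.73, 12.46, 12.71 and 12.62 in the mdx HRTΔIKKβ hearts and 12.27, 11.86 and 12.47 in the control hearts. The difference was 0.43 ± 0.14, but control replicate 3 lay just above deleted replicate 2, and without control replicate 2 the difference was 0.26. The other Calr probe sets, both dimmer, differed by 0.47 and 0.42, and there every deleted heart lay above every control. Canx (calnexin) read 12.32, 12.33, 12.44 and 12.33 in the mdx HRTΔIKKβ hearts and 12.33, 12.12 and 12.38 in the control hearts, a difference of 0.08 ± 0.08 with overlapping groups. Without control replicate 2 the Canx difference was -0.0050.

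Disulfide isomerases and related proteins of the lumen were higher throughout. All 7 genes of this step had a higher mean, with a median of 0.36, and in 6 the groups did not overlap. Pdia3 (ERp57), which forms disulfides in glycoproteins bound to calnexin and calreticulin, read 11.93, 11.75, 11.62 and 11.56 in the mdx HRTΔIKKβ hearts and 11.22, 10.54 and 11.36 in the control hearts. Its difference of 0.67 ± 0.19 (1.59-fold) leaned on control replicate 2, which was far below the other controls, and was 0.42 without that heart. Pdia4 (ERp72) read 8.75, 8.56, 8.66 and 8.62 in the mdx HRTΔIKKβ hearts and 8.21, 8.36 and 8.30 in the control hearts (0.36 ± 0.07). Pdia6 (P5), which also acts on IRE1α, read 11.42, 11.46, 11.73 and 11.47 in the mdx HRTΔIKKβ hearts and 11.17, 10.95 and 11.10 in the control hearts (0.45 ± 0.09). In both genes the groups stood well apart, and deleted replicate 3 was the highest heart for Pdia6.

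P4hb, the classical protein disulfide isomerase and a subunit of collagen prolyl hydroxylase, read 12.29, 12.30, 12.19 and 12.08 in the mdx HRTΔIKKβ hearts and 12.03, 11.77 and 12.02 in the control hearts (0.28 ± 0.09). Creld2, a stress-inducible protein of the lumen, read 9.30, 9.44, 9.60 and 9.60 in the mdx HRTΔIKKβ hearts and 8.92, 8.93 and 9.01 in the control hearts (0.53 ± 0.08). The controls of Creld2 lay close together, and the deleted hearts were all higher, with replicates 3 and 4 almost level. Of the proline isomerases, Ppib (cyclophilin B, which acts on procollagen) read 11.83, 11.88, 11.60 and 11.60 in the mdx HRTΔIKKβ hearts and 11.51, 11.48 and 11.59 in the control hearts (0.20 ± 0.09). Deleted replicates 3 and 4 were barely above control replicate 3. Fkbp2 differed by 0.24 ± 0.13 with overlapping groups, by 0.135 without control replicate 1 and by 0.38 without control replicate 3.

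Translocation genes were higher in 6 of 6, with a median of 0.23, and the deleted hearts were not alike. Sec61a1 encodes the pore of the translocon and read 10.94, 10.89, 10.57 and 10.62 in the mdx HRTΔIKKβ hearts and 10.42, 10.43 and 10.54 in the control hearts (0.29 ± 0.10). Deleted replicates 1 and 2 were high, and replicates 3 and 4 lay just above the controls. Replicates 1 and 2 were also the high ones for Sec61b, the beta subunit, with 10.91, 10.87, 10.52 and 10.48 in the mdx HRTΔIKKβ hearts and 10.54, 10.31 and 10.49 in the control hearts (0.25 ± 0.13), and its groups overlapped.

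The translocon-associated TRAP complex, which aids the entry of some precursors, had 3 genes on the list. Ssr3 read 12.18, 12.15, 12.11 and 12.09 in the mdx HRTΔIKKβ hearts and 12.04, 11.91 and 12.07 in the control hearts (0.13 ± 0.06), and its groups did not overlap. At the other Ssr3 probe set the difference was 0.0045 ± 0.0485, with overlapping groups. Ssr1 read 10.93, 11.05, 10.77 and 10.68 in the mdx HRTΔIKKβ hearts and 10.65, 10.52 and 10.68 in the control hearts (0.24 ± 0.10). Ssr2 differed by 0.23 ± 0.09, and in both Ssr1 and Ssr2 deleted replicate 4 lay inside the control range. At a dimmer Ssr1 probe set (0.25 ± 0.08) the groups did not overlap. At the remaining Ssr1 probe sets, with differences of 0.14 and 0.21, they overlapped. Sec11c, a catalytic subunit of signal peptidase, read 9.27, 9.40, 9.34 and 9.27 in the mdx HRTΔIKKβ hearts and 9.25, 9.06 and 9.25 in the control hearts (0.13 ± 0.07), with deleted replicates 1 and 4 barely above control replicate 1. Without control replicate 2 the difference was 0.067 for Sec11c and 0.080 for Ssr3.

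Among the listed genes, N-glycosylation was the most even step. All 4 listed subunits of the oligosaccharyltransferase had groups that did not overlap, with differences from 0.23 to 0.26. Ostc read 10.83, 10.81, 10.78 and 10.68 in the mdx HRTΔIKKβ hearts and 10.57, 10.50 and 10.49 in the control hearts (0.26 ± 0.06). Ddost read 11.38, 11.32, 11.32 and 11.27 in the mdx HRTΔIKKβ hearts and 11.20, 10.88 and 11.12 in the control hearts (0.25 ± 0.08), and 0.16 without control replicate 2. The ribophorins belong to the same enzyme and anchor near the translocon. Rpn1 read 11.83, 12.01, 11.89 and 11.78 in the mdx HRTΔIKKβ hearts and 11.56, 11.68 and 11.67 in the control hearts (0.24 ± 0.07). Rpn2 read 9.88, 9.89, 9.74 and 9.76 in the mdx HRTΔIKKβ hearts and 9.55, 9.47 and 9.74 in the control hearts (0.23 ± 0.08). Deleted replicate 4 was the lowest of its group for Ostc, Ddost and Rpn1, and deleted replicate 3 for Rpn2, where control replicate 3 was almost level with it.

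In ER-associated degradation most genes had overlapping groups. The median over 8 genes was 0.065 (0.14 without control replicate 2), and the groups did not overlap in 2. Edem1, a lectin-like protein that marks misfolded glycoproteins for removal, read 9.28, 9.34, 8.95 and 9.12 in the mdx HRTΔIKKβ hearts and 8.75, 8.66 and 8.84 in the control hearts (0.42 ± 0.10, 1.34-fold). Deleted replicates 1 and 2 were highest. Syvn1, the ubiquitin ligase HRD1, read 9.05, 9.28, 9.25 and 9.07 in the mdx HRTΔIKKβ hearts and 8.9995, 8.77 and 8.99 in the control hearts (0.24 ± 0.09). Its lowest deleted hearts lay just above the controls.

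The partners of these proteins were not separated at their brightest probe sets. Sel1l, the scaffold of HRD1, differed by 0.01 ± 0.08, and Edem2, a mannosidase that starts the trimming of glycoproteins for removal, by -0.01 ± 0.06. The derlins, membrane proteins of the export channel, differed by 0.04 ± 0.09 (Derl1), 0.07 ± 0.06 (Derl2) and 0.11 ± 0.09 (Derl3). Each of these 5 genes had overlapping groups at that probe set, and the sign of Sel1l, Edem2 and Derl1 turned when single hearts were left out. At a dimmer Derl1 probe set the difference was 0.15 ± 0.05, with every deleted heart above every control. At the remaining Derl1 probe sets, with differences of 0.08 and 0.05, the groups overlapped. Without control replicate 1 the Derl2 difference was 0.025, and without control replicate 3 the Derl3 difference was 0.0125. Without control replicate 2 they were 0.12 and 0.18.

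Herpud1, a stress-inducible membrane protein of the HRD1 complex, split the deleted hearts. It read 12.09, 11.73, 12.90 and 12.89 in the mdx HRTΔIKKβ hearts and 12.18, 12.55 and 12.30 in the control hearts, so that replicates 3 and 4 lay above every control and replicates 1 and 2 below every control. The difference of the means was 0.06 ± 0.30, with a sign that turned when deleted replicate 3 or 4 or control replicate 1 was left out, and the other Herpud1 probe set split the deleted hearts the same way, at 11.82, 11.50, 12.70 and 12.71.

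Of the sensors and their factors, Xbp1 stood apart. The transcription factor XBP1 drives chaperone and degradation genes once its mRNA is spliced by IRE1α, and splicing was not analysed here. Xbp1 read 12.18, 12.20, 12.32 and 12.11 in the mdx HRTΔIKKβ hearts and 11.83, 11.54 and 11.81 in the control hearts. The difference was 0.48 ± 0.09 (1.39-fold), with every deleted heart above every control. Of its 3 other probe sets, 2 differed by 0.38 and 0.51 and the dimmest by 0.0040.

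Ern1, the gene of IRE1α, was the only one of the 41 genes lower at the unadjusted threshold. It read 8.66, 8.68, 8.65 and 8.89 in the mdx HRTΔIKKβ hearts and 8.89, 8.94 and 8.95 in the control hearts. Deleted replicates 1 to 3 lay below all controls and replicate 4 was level with the lowest control, which gave a difference of -0.21 ± 0.07. The call at the unadjusted threshold was lost without deleted replicate 1 or 3 and without control replicate 2 or 3. Of the 4 other Ern1 probe sets, all dimmer, 2 were higher and 2 lower in mean.

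Eif2ak3 encodes PERK, which slows translation under ER stress. It read 8.31, 8.64, 8.33 and 8.46 in the mdx HRTΔIKKβ hearts and 8.22, 8.24 and 8.26 in the control hearts (0.20 ± 0.09), and 0.13 without deleted replicate 2, its highest heart. The controls lay within a narrow range just below the lowest deleted heart. Atf6, whose product is cut in the Golgi to release a transcription factor, read 10.63, 10.69, 10.50 and 10.80 in the mdx HRTΔIKKβ hearts and 10.34, 10.61 and 10.74 in the control hearts (0.09 ± 0.11), with overlapping groups. Without control replicate 1 the Atf6 difference was -0.017.

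Export was represented by a pair of genes. Man2a1, the Golgi mannosidase II that trims N-glycans on their way out, read 10.35, 10.47, 10.57 and 10.68 in the mdx HRTΔIKKβ hearts and 9.84, 9.90 and 10.04 in the control hearts. All deleted hearts were above all controls (0.59 ± 0.09, 1.505-fold). Sec24d, a coat protein of COPII vesicles that leave the ER, read 10.16, 10.08, 10.15 and 10.17 in the mdx HRTΔIKKβ hearts and 9.98, 10.01 and 10.19 in the control hearts (0.08 ± 0.07), with overlapping groups. Its difference was 0.040 without control replicate 1 and 0.14 without control replicate 3.

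**Figure D4:**
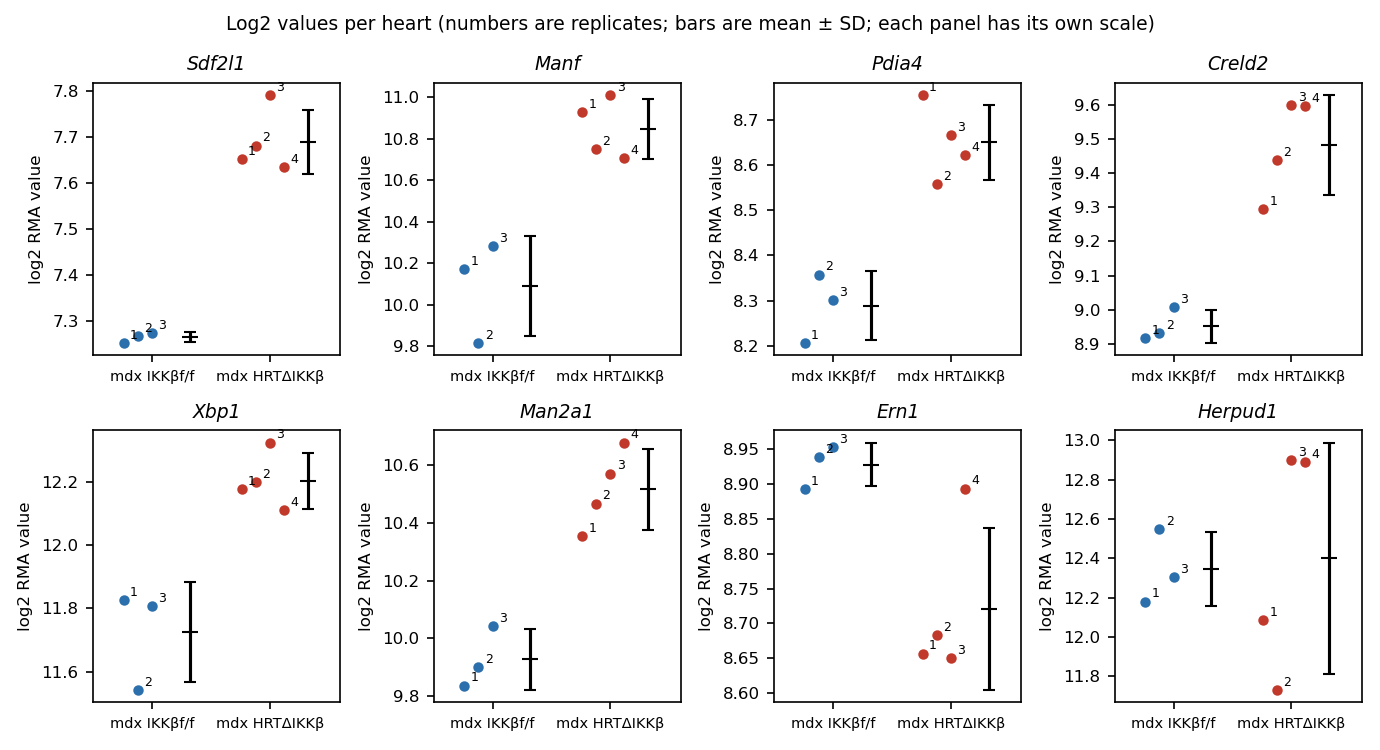
Log2 values of 8 ER genes in each heart (points, numbered by replicate) with the mean ± SD of each group (4 mdx HRTΔIKKβ and 3 mdx IKKβf/f hearts), each panel on its own scale. The groups are separate for Sdf2l1, Manf, Pdia4, Creld2, Xbp1 and Man2a1, meet at deleted replicate 4 for Ern1 and overlap for Herpud1.

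Averaged over genes, the hearts separated. The mean of the 41 genes, each centred on its own mean over the 7 hearts, was 0.11, 0.11, 0.14 and 0.080 in deleted replicates 1 to 4 and -0.15, -0.21 and -0.077 in control replicates 1 to 3. The hearts differed in which step was high. Deleted replicate 3 had the highest Hsp70 score, at 0.29 against 0.081 to 0.11 in the other deleted hearts. Replicates 1 and 2 led in translocation, at 0.18 and 0.21 against 0.026 in replicate 3 and -0.051 in replicate 4, which was level with control replicate 3 at -0.058. For degradation, replicates 3 and 4 led, at 0.13 and 0.10 against -0.0039 and -0.025 in replicates 1 and 2. Differences between steps were not tested.

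Further genes of the same pathway, listed by step and outside the 42, were less separated. Of 157 genes, 150 were on the array. A higher mean was found in 106, against 47.7% of all genes. At the unadjusted threshold in limma 22 (14.7%, against 3.25% of all genes) were higher and 2 lower (2.95% of all genes), while 0 passed the adjusted threshold. The median was 0.070. The groups did not overlap upward in 24, against 3.05% of all genes, and downward in 3, against 2.62%. Without deleted replicate 2 the higher genes at the unadjusted threshold numbered 13. Without control replicate 3 the genes whose groups did not overlap upward numbered 48, but leaving out a heart cannot make separate groups overlap. Shares over all genes were not counted for these smaller sets of hearts. The differences of individual genes of this wider set named here are those with the smallest unadjusted p in each step.

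In the folding steps, Uggt1, the glucosyltransferase that tests whether a glycoprotein is folded, differed by 0.30 ± 0.08, and Mogs, which removes the first glucose from the glycan, by 0.27 ± 0.11. Among isomerases Txndc11 differed by 0.32 ± 0.12 and Fkbp14, a proline isomerase that acts on collagen, by 0.27 ± 0.09. Dnajc16, a J-domain protein, had a lower mean (-0.28 ± 0.11), as did the Hsp70 step of this wider set as a whole, with a median of -0.026 over 9 genes. Hspa13, an Hsp70 relative of microsomes, differed by 0.12 ± 0.09. Leaving out control replicate 2 gave 0.16 for Mogs and 0.040 for Hspa13, and leaving out control replicate 3 gave -0.15 for Dnajc16.

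At entry and glycosylation, Srprb, a subunit of the receptor for the signal recognition particle, differed by 0.33 ± 0.09, and Spcs2, of the signal peptidase, by 0.25 ± 0.07. Stt3a, the catalytic subunit of the oligosaccharyltransferase, differed by 0.27 ± 0.10, and Alg14, which helps to build the lipid-linked glycan, by 0.25 ± 0.07. None of these 4 had overlapping groups. Over all 22 N-glycosylation genes of this wider set the median was 0.0925, and 17 had a higher mean. At the unadjusted threshold 3 of the 22 were higher (13.6%, against 3.25% of all genes) and 0 lower. Srprb differed by -0.067 at the probe set left after removing those that can bind related transcripts. In degradation Ube2g2, a ubiquitin-conjugating enzyme that works with ER ligases, differed by 0.24 ± 0.06 and Erlin1 by 0.20 ± 0.08. Among stress factors, Creb3l2 differed by 0.35 ± 0.14 and Atf6b, a relative of ATF6, by 0.39 ± 0.18, both with overlapping groups, and without control replicate 2 the values were 0.18 and 0.25. In export Man1a, a Golgi mannosidase, differed by 0.36 ± 0.10, and Kdelr2, the receptor that returns escaped chaperones to the ER, by 0.19 ± 0.05. Of the 36 export genes, 28 had a higher mean and 8 were higher at the unadjusted threshold (22.2%, against 3.25% of all genes).

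The branch that runs from PERK to ATF4 and CHOP was followed with 15 of its genes. A higher mean was found in 12, with a median of 0.17, but groups overlapped in all 15 and 0 had an unadjusted limma p under 0.05. Over all genes 3.25% were higher and 2.95% lower at that threshold.

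Markers of other cells also differed between the groups, and secretory cells such as plasma cells are rich in ER. Of 11 B and plasma cell markers, 8 had a higher mean in the deleted hearts and 3 a lower one. At the unadjusted limma threshold 3 were higher (3.25% of all genes) and 1, Prdm1, was lower (2.95% of all genes). The Prdm1 difference was -0.57 ± 0.225. Ighm, the heavy chain of immunoglobulin M, read 10.68, 13.55, 12.49 and 11.73 in the mdx HRTΔIKKβ hearts and 10.04, 8.28 and 8.26 in the control hearts (3.25 ± 0.71). Jchain, which joins immunoglobulin M, differed by 3.02 ± 1.01. The mean centred score of these markers ran from -0.25 to 1.48 in the deleted hearts and from -0.85 to -0.027 in the controls. RMA leaves no value at 0, so absence of a marker cannot be read from these data. The part of these cells in the ER result was not tested.

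Scores of other marker lists were set beside the ER score in the same way. All 7 mesothelial markers were higher, 6 of them at the unadjusted threshold (3.25% of all genes). Their scores ran from -0.17 to 1.09 in the deleted hearts and from -0.56 to -0.52 in the controls. All 8 airway markers had a higher mean, with scores from -1.15 to 2.96 against -1.22 to -0.69, and all 9 atrial markers, with scores from -0.30 to 1.02 against -1.66 to 0.42. The mesothelial scores alone were separate between the groups, and those of the other lists overlapped. Of 14 macrophage markers 12 had a higher mean, with scores from -0.11 to 0.23 against -0.24 to -0.076. At the unadjusted limma threshold 4 of the 14 were higher (3.25% of all genes) and 1 lower (2.95% of all genes). Groups of 3 macrophage markers did not overlap upward, against 3.05% of all genes. Of 13 fibroblast markers 10 had a higher mean, with scores from -0.26 to 0.26 against -0.33 to 0.068. Of 6 adipocyte markers all had a higher mean (-0.20 to 1.61 against -0.92 to 0.12), and of 10 endothelial markers 6 did (-0.13 to 0.20 against -0.098 to 0.030). Smooth muscle and pericyte markers had a lower mean in 7 of 8 (-0.22 to 0.0055 against -0.30 to 0.80), and skeletal muscle markers in 12 of 12 (-1.32 to 0.19 against -1.05 to 3.89).

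The deleted heart with the highest ER score, replicate 3 at 0.14, lay above every control for B and plasma cell markers (0.39), atrial markers (0.53) and mesothelial markers (-0.17). It lay inside the range of the controls for airway (-1.15), macrophage (-0.11), fibroblast (-0.26), endothelial (-0.0016), smooth muscle and pericyte (-0.22) and adipocyte markers (-0.096), and below every control for skeletal muscle markers (-1.20). The part of these cells in its ER score was not tested. The deleted heart with the highest B and plasma cell score (replicate 2) and the control with the lowest atrial score (replicate 2) were also left out together, a choice made after seeing the data. In the remaining 5 hearts 39 of 41 ER genes had a higher mean, the median was 0.18, and 15 were higher at the unadjusted threshold. Groups did not overlap in 28, but leaving out hearts cannot make separate groups overlap. Shares over all genes were not counted for these 5 hearts.

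**Figure D5:**
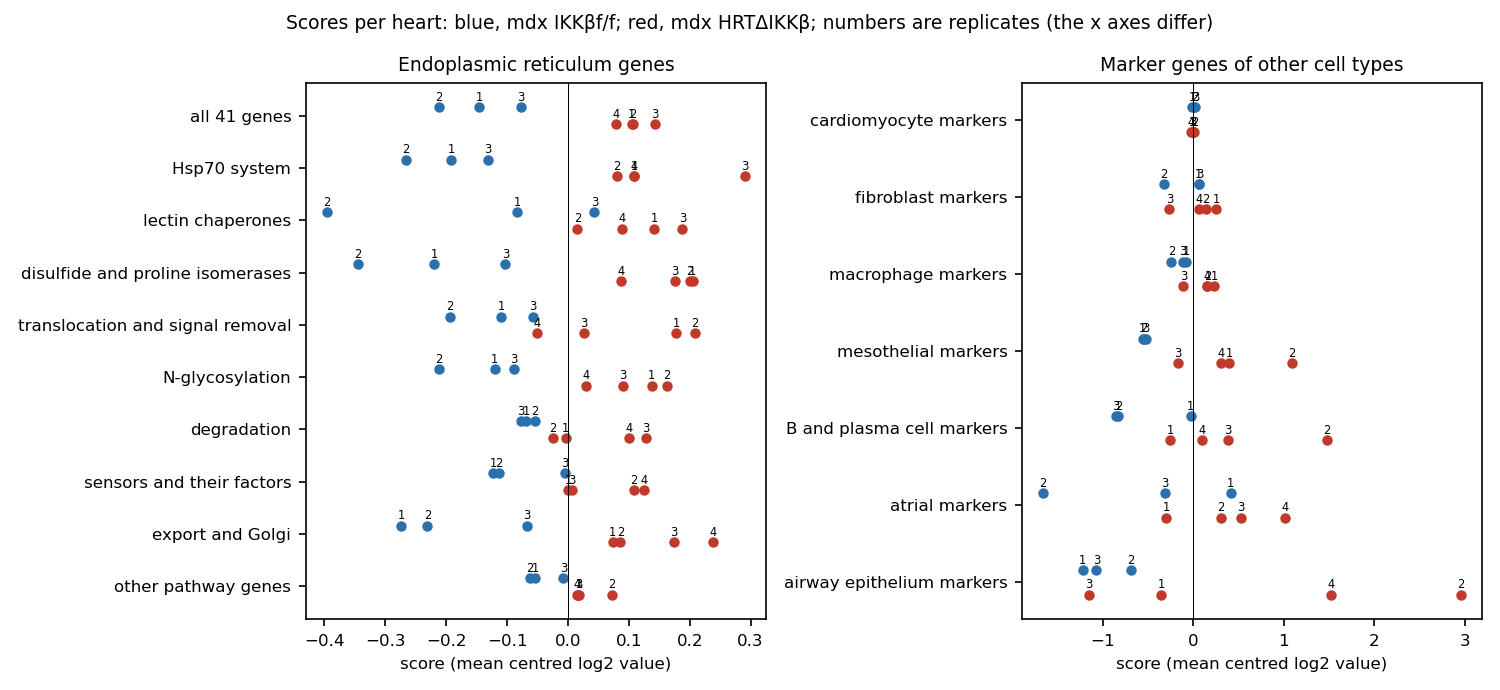
Mean centred log2 value per heart (blue, 3 mdx IKKβf/f; red, 4 mdx HRTΔIKKβ; numbers are replicates) for the ER genes and their steps at the left and for marker lists at the right, where the x axis is wider. The groups are apart for all 41 ER genes (0.080 to 0.14 against -0.21 to -0.077), overlap for the lectin chaperones and overlap for the B and plasma cell, atrial and airway markers.

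Other probe sets of the same genes gave smaller values of mostly the same sign. The 41 genes had 97 probe sets, and of the 56 not used above 51 had the sign of the chosen one and 20 had groups that did not overlap upward. Their median difference was 0.12. Dimmer probe sets went the other way for Hyou1 (-0.13) and Rpn1 (-0.14). For Rpn1 this was the dimmest probe set, with a mean of 6.77. The remaining Rpn1 probe sets differed by 0.21 to 0.29, with groups that did not overlap. Leaving out probe sets that by their suffix can bind related transcripts kept 33 of the 41 genes, 9 of them through another probe set. Of these 33, 29 had a higher mean, 14 were higher at the unadjusted threshold and 15 had groups that did not overlap.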

How the data were processed

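Total RNA from 7 whole mdx mouse hearts was biotin-labelled and run on Affymetrix Mouse Genome arrays, 1 heart each. The study states that the samples are biological replicates, so p-values measure the spread between hearts. The deposited log2 values were computed by the authors with RMA (background correction, quantile normalization between arrays, 1 summary per probe set). Partek and Affymetrix Expression Console are named, with no version in the sources used here and without saying which made the table. RMA compresses differences at low signal, and its quantile step removes any shift common to all genes. These are array values with no read depth, and the number of arrays limits the precision. Values ran from 3.12 to 15.1.

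From these, mdx HRTΔIKKβ minus mdx IKKβf/f was fitted over all 45037 probe sets with limma 3.58.1 in R 4.3.3 (lmFit, eBayes, two-sided, Benjamini-Hochberg adjustment, no filter on dim probe sets), after the script was tested on simulated data. Platform annotation gave 1 gene to 34945 probe sets, several to 932 and none to 9160, and each of 18193 genes took its probe set with the highest mean over the 7 arrays. Entrez IDs of the ER genes were matched to a RefSeq table, which changed 0 symbols. Members, step assignments, motifs and marker lists were chosen with earlier results of these data known. Values in every heart were given for Xbp1, Atf6, Ern1 and Eif2ak3, for genes whose groups did not overlap, and for the 2 genes of smallest p in each step. Sec61b and Herpud1 were added after their values were seen, as were the second Herpud1 probe set and the other probe sets named. Of the wider pathway list the 2 genes of smallest p per step were named, and of marker lists Ighm and Jchain. Prdm1 and Mybpc3 were added after their values were seen. Labels name no batch or scan date, and no block was used. Alternatives were other scalings, a filter below the 25th percentile, other choices of probe sets, array weights, trended and robust variance, a replicate block, an unpaired t-test and leaving out each heart. Leaving out 2 hearts together and leaving out the 5 genes singled out earlier were added after seeing the data. Promoter windows came from RefSeq (GRCm38.p6, 32851 windows).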

Additional observations from a re-analysis of the deposited data

Results flagged for a closer look

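A few values lay far from the other 3 hearts of the mdx HRTΔIKKβ group, judged by the gap to the nearest heart as a share of the whole range of the group (Dixon's test at the 95% level), which chance reaches in about 1 of 20 groups. Among the 41 ER genes this was so for 4. Canx (12.44) and Pdia6 (11.73) were high in replicate 3, Derl3 (7.64) was high in replicate 1, and Ern1 (8.89) was high in replicate 4. Among 22 averaged scores it was so for 3, namely the Hsp70 system in replicate 3 (0.29), the wider pathway list in replicate 2 (0.072) and the skeletal muscle markers in replicate 2 (0.19).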

How the results depend on the processing

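No ER gene passed the adjusted threshold under any alternative, with the smallest adjusted p of an ER gene between 0.291 and 0.932, and the median over the 41 genes stayed between 0.18 and 0.28. A second quantile normalization gave 1 ER gene with separate groups downward and -0.00791 for Sel1l. Without dim probe sets 1 wider pathway gene was lower at the unadjusted threshold. Without probe sets that can bind related transcripts, 14 ER genes were higher at that threshold, 15 had separate groups upward, 1 wider pathway gene was lower, the lectin chaperone and sensor medians were 0.053 and 0.048, and Hyou1 (-0.13), Rpn1 (-0.14) and Srprb (-0.067) reversed. The Rpn1 value came from its dimmest probe set, the only one left by this filter. The smaller set of 33 genes accounts for part of the lower counts, and for the rest the cause was not tested. With the mean of all probe sets of a gene, 0 ER genes and 0 wider pathway genes were lower, the Hsp70 and isomerase medians were 0.25 and 0.24, and Edem2 was 0.00329. Array weights gave 0.00617 for Edem2.

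Hearts of the same replicate number did not deviate together (correlations of -0.075, -0.38 and -0.036), so no pairing by number was seen. Deleted replicate 2 and control replicate 1, of unlike number, reached 0.374, so these correlations cannot decide whether hearts were paired. With a replicate block, 22 ER genes and 13 wider pathway genes were higher and 1 wider pathway gene was lower, and Sel1l (-0.00489) and Herpud1 (-0.11) reversed.

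With each heart left out in turn, ER genes lower at the unadjusted threshold numbered 0 to 1 and those with separate groups downward 0 to 1. Wider pathway genes numbered 13 to 25 (higher), 0 to 1 (lower), 24 to 48 (separate upward) and 3 to 8 (separate downward), with the 8 reached without mdx HRTΔIKKβ replicate 4. Leaving out hearts cannot make separate groups overlap. A rise in counts of separate groups, here and below, therefore cannot be read as a result about the genes. The degradation median ran from 0.041 to 0.14. Differences that changed sign ran from -0.0047 to 0.10 (Dnajb9), -0.0050 to 0.13 (Canx), -0.040 to 0.046 (Sel1l), -0.11 to 0.28 (Herpud1), -0.041 to 0.016 (Edem2), -0.029 to 0.083 (Derl1) and -0.017 to 0.18 (Atf6).

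Without mdx HRTΔIKKβ replicate 2 and mdx IKKβf/f replicate 2 together, chosen after seeing the data, 15 ER genes were higher and 0 lower, 11 wider pathway genes higher, 0 lower and 6 separate downward. The medians were 0.18 (all 41 genes), 0.13 (translocation, 0.125) and 0.13 (degradation, 0.129). Without the 5 genes singled out earlier, also chosen after seeing the data, the lectin chaperone and export medians rested on 1 gene each, at 0.076 and 0.078.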
